A study of Homo sapiens with 15 samples.

Results

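Neutrophil-attracting CXC chemokines, colony stimulating factors and a pair of co-induced secreted proteins were read in cancer stem cells (CSCs) and other cells of triple negative breast cancer lines. The 10 genes, of 33158 gene symbols in the deposited table, were CXCL1, CXCL2, CXCL3, CXCL5, CXCL6, IL8 (the table's name for CXCL8), CSF2, CSF3, IL24 and TNFAIP6. They were selected on their FPKM in the CSC and non-CSC fractions of SUM149PT and HCC1937, so every difference between fractions given for them is a description and carries no test. Levels are FPKM, which divide the fragments of a gene by its transcript length and by the library's mapped fragments, and levels of different genes are set side by side on that per-length scale. The study sequenced mRNA from 15 libraries in 5 groups of 3, to find genes that mark CSCs. SUM149PT and HCC1937 cells (SUM149 and HCC1937 in the labels) were sorted into CD44+/CD24-/low cells, labelled cancer stem cells, and all remaining cells, labelled non-cancer stem cells. SUM159PT (SUM159 in the labels) was sequenced unsorted and carries the cancer stem cell label because the study took it as a line made up mostly of cells with that surface profile. All 3 are established lines grown in culture, the non-CSC fraction is defined only by the gate it missed, and nothing says that the 3 libraries of a group came from separate cultures, so p-values measure only the spread between libraries, which may be technical. Relative depth within a group was read from the most common ratio of low FPKM values (under 0.3 in all libraries) between replicates, a check added after the data were seen. That ratio was held by 1.71% to 9.43% of the low genes of a pair and put replicates 2 and 3 at 0.809 to 1.20 times the depth of replicate 1, while the number of fragments is unknown. In pairs from different groups the most common ratio was held by 1.14% to 5.17%, with a median of 2.18%. Some replicate pairs were below that median, so these depths are rough. Summed FPKM ran from 291276 to 366532 in the sorted libraries and from 634746 to 652082 in SUM159PT, and no scaling between lines was given. In such bulk libraries fewer cells making a transcript and less transcript per cell cannot be told apart.

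CXC chemokines with the tripeptide ELR before their first cysteines bind the receptors CXCR1 and CXCR2 and draw neutrophils to a tissue, while CSF3 drives the production and release of neutrophils and CSF2 that of granulocytes and macrophages. Their genes are switched on by IL1, TNF and Toll-like receptor signals through NF-kappaB, and their short-lived mRNAs are held down by proteins that bind AU-rich elements. IL24 is a cytokine of the IL10 family, and TNFAIP6 is a secreted hyaluronan-binding protein that is induced by the same signals.

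The 6 CXC chemokine genes lie in a single cluster on chromosome 4, over 359 kb of GRCh38.p14 in the RefSeq annotation, from 73740569 at IL8 to 74099195 at CXCL2. CSF2 lies on chromosome 5, CSF3 on chromosome 17, IL24 on chromosome 1 and TNFAIP6 on chromosome 2. RefSeq promoter windows were matched for 9 of the 10 genes, CSF3 being the other. The 250 bases before the gene start are shown for 4 neighbours in the cluster, since their levels moved in different ways between fractions although their promoters share a motif. CXCL1 (chr4:73869143-73869392, plus strand), CXCL2 (chr4:74099196-74099445, minus strand), CXCL6 (chr4:73836428-73836677, plus strand) and IL8 (chr4:73740319-73740568, plus strand) are written 5′ to 3′, upstream of the transcribed part, with capitals for matches to the kappaB and AP-1 patterns described next.
CXCL1: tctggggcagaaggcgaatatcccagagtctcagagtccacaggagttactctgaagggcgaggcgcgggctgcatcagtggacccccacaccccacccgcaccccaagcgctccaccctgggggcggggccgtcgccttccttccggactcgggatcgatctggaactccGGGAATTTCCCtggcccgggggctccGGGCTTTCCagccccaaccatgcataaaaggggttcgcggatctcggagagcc
CXCL2: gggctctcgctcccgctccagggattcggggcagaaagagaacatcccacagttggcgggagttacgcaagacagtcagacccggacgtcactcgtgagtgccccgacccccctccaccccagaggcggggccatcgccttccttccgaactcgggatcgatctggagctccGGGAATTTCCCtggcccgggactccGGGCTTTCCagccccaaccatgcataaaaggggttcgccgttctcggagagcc
CXCL6: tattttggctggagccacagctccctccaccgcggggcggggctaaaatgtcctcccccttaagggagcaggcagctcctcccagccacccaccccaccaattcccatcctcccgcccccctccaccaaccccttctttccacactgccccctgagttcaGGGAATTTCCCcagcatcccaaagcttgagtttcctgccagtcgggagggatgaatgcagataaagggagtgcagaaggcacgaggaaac
IL8: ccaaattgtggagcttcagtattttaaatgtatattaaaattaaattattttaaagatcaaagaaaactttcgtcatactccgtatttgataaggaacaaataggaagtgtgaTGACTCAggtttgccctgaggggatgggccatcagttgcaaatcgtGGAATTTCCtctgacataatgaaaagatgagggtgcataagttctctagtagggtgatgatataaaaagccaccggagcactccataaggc

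Both strands of each window were searched for the kappaB consensus, for GGAANTTCC, for GGGNNTTCC and for the AP-1 pattern TGANTCA, and matches of the first 3 can overlap. All 6 CXC chemokine windows held GGAANTTCC, each as the same string GGAATTTCC, against 0.826% of 35116 promoters of the table. The kappaB consensus was in 5 of the 9 windows, all but IL8 among the chemokines, against 9.96% of all promoters. GGGNNTTCC was in the windows of CXCL1, CXCL2 and CXCL3, against 5.78% of all promoters. The windows of CXCL1, CXCL2 and CXCL3 resemble each other over long stretches, as do those of CXCL5 and CXCL6. Matches in these windows are therefore not independent, which limits the comparison with the shares over all promoters. TGANTCA was in those of IL8 and TNFAIP6, against 6.57%. The windows of CSF2 and IL24 held none of these letter patterns. The match began 78 bases before the start in CXCL1, 77 in CXCL2, 89 in CXCL6 and 91 in IL8, and a match of letters is a description of the reference sequence and not of factor binding in these cells.

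Of the surface markers used for the sort, CD24 showed it clearly in RNA and CD44 did not. CD24 averaged 7.74 ± 0.198 FPKM (SD, n = 3) in SUM149PT CSCs against 139 ± 6.53 in non-CSCs, and 23.3 ± 0.747 against 150.0 ± 14.3 in HCC1937. CD44 averaged 84.4 ± 2.08 against 64.5 ± 2.86 FPKM in SUM149PT and 106 ± 6.33 against 97.8 ± 3.98 in HCC1937, and was not called in either line. Among 9 breast epithelial markers, 7 were called lower in CSCs of each line, with summed FPKM of 502 ± 16.2 against 2942 ± 50.1 in SUM149PT and 1110.0 ± 90.4 against 2624 ± 221 in HCC1937. A call needed a log2 difference of 1 or more in size with an adjusted p (limma) of 0.05 or less. Genes were tested if they averaged 0.1 FPKM or more over the libraries fitted. A gene near 0 in 1 fraction could pass only through the other, which set its direction. Over all genes tested 12.8% were called higher and 22.1% lower in SUM149PT CSCs, and 2.71% higher and 6.0% lower in HCC1937 CSCs. The most abundant epithelial marker was KRT7 in all groups except SUM149PT non-CSCs, where it was KRT19. KRT7 was not among those called, but was called lower in SUM149PT CSCs after quantile normalization (-1.09) and without CSC replicate 2 (-1.01), and in HCC1937 CSCs without CSC replicate 1 (-1.04) or non-CSC replicate 3 (-1.06). In each line 7 of the 9 markers were called lower in CSCs, while CXCL1 was lower in SUM149PT CSCs and higher in HCC1937 CSCs. The part of the epithelial markers in the chemokine levels was not tested.

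Neutrophils and monocytes express several of these genes, so their markers were read as well. PTPRC, the common leukocyte antigen, averaged at most 0.0660 FPKM in any group, MPO at most 0.00393, and ELANE was listed at 0 in all 15 libraries. The 12 markers of this list summed to 19.2 ± 0.656 FPKM in SUM149PT CSCs, 105 ± 4.03 in SUM149PT non-CSCs, 107 ± 8.05 in HCC1937 CSCs, 77.3 ± 2.65 in HCC1937 non-CSCs and 51.6 ± 3.20 in SUM159PT. Most of that sum was CD14 and CD68, of which CD14, a lipopolysaccharide co-receptor, averaged 2.66 ± 0.435 FPKM in SUM149PT CSCs, 51.3 ± 2.35 in SUM149PT non-CSCs, 60.3 ± 6.003 in HCC1937 CSCs and 30.3 ± 2.25 in HCC1937 non-CSCs. In SUM149PT 5 of the 12 passed the minimum of 0.1 FPKM for a test. These (ITGB2, CSF3R, S100A12, CD14 and CD68) were called lower in CSCs, beside 22.1% of all genes tested. CSF3R and S100A12, at 0.0129 and 0 FPKM in those CSCs, passed only through the non-CSCs, so the minimum set their direction. In HCC1937 none of 6 tested was called, beside 8.71% of all genes tested, CD14 being just short of the limit at 0.99. CD14 was called higher in HCC1937 CSCs under upper quartile scaling (1.004), quantile normalization (1.06) and rescaling to a common sum (1.12), and without CSC replicate 3 (1.07) or non-CSC replicate 2 (1.05), and S100A12 lower without CSC replicate 3 (-1.55). The part of these markers in the chemokine levels was not tested.

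The 7 fibroblast markers summed to 242 ± 2.81 FPKM in SUM149PT CSCs, 69.1 ± 1.81 in SUM149PT non-CSCs, 12.3 ± 0.516 in HCC1937 CSCs, 7.08 ± 0.877 in HCC1937 non-CSCs and 45.3 ± 2.60 in SUM159PT, with COL1A1 the most abundant in every group. In SUM149PT 6 were tested, of which COL1A1, COL3A1, PDGFRA and PDGFRB were called higher in CSCs, beside 12.8% of all genes tested, and DCN lower, beside 22.1%. COL1A1 was at 216 ± 2.81 against 49.0 ± 2.90 FPKM and DCN at 1.80 ± 0.134 against 16.2 ± 1.41. In HCC1937 COL1A2, 1 of 3 tested, was called higher in CSCs, beside 2.71% of all genes tested (0.863 ± 0.158 against 0.225 ± 0.0693 FPKM, log2 difference 1.58), but not with a pseudocount of 1 (0.60). The 5 endothelial markers summed to at most 1.71 FPKM in any group. PECAM1, VWF and CDH5, those tested in SUM149PT, were called lower in CSCs there, beside 22.1% of all genes tested. Their log2 differences of -1.20, -2.48 and -2.70 were -0.31, -0.70 and -0.69 with a pseudocount of 1, too small for a call, as was PECAM1 after quantile normalization (-0.59). VWF and CDH5, at 0.0433 and 0.0124 FPKM in those CSCs, passed the minimum only through the non-CSCs, which set their direction. CDH5 was also called lower in HCC1937 CSCs (-1.28), but not with a pseudocount of 1 (-0.28) or without CSC replicate 2 (-1.18), non-CSC replicate 1 (-1.18) or non-CSC replicate 3 (-1.27). The markers named singly were chosen after their values were seen, and the part of the fibroblast and endothelial markers in the chemokine levels was not tested.

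CXCL1, a neutrophil attractant, had FPKM of 24.8, 21.0 and 27.6 in the 3 SUM149PT CSC libraries and 666, 627 and 603 in the SUM149PT non-CSC libraries. In HCC1937 the CSC libraries had 360.1, 271 and 257 and the non-CSC libraries 80.1, 94.8 and 83.9, and the unsorted SUM159PT libraries had 4.06, 3.83 and 3.53. CXCL1 was therefore low in CSCs and high in non-CSCs of SUM149PT, and the other way round in HCC1937, with no overlap between any of the 5 groups. The ratio of means was 25.8 in favour of non-CSCs in SUM149PT and 3.43 in favour of CSCs in HCC1937.

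CXCL6, another ELR+ attractant, had 0.776, 0.406 and 0.861 FPKM in SUM149PT CSCs and 26.7, 18.8 and 23.8 in SUM149PT non-CSCs. It had 19.1, 20.0 and 17.4 FPKM in HCC1937 CSCs and 2.68, 3.95 and 3.47 in HCC1937 non-CSCs, and 0, 0 and 0.0620 in SUM159PT. SUM149PT non-CSCs and HCC1937 CSCs were the high groups and overlapped, and the other groups were apart and lower. CXCL5, an attractant for the same receptor CXCR2, had 0.0866, 0.0948 and 0.113 FPKM in SUM149PT CSCs and 4.41, 3.48 and 3.32 in SUM149PT non-CSCs. It had 4.96, 4.54 and 4.50 in HCC1937 CSCs and 0.835, 0.774 and 1.18 in HCC1937 non-CSCs, and was listed at 0 in the 3 SUM159PT libraries. The fractions were apart in each line and stood in opposite order, at a level below that of CXCL6 in every sorted group. The ratio of CXCL6 to CXCL5 within a library averaged between 3.75 in HCC1937 non-CSCs and 6.95 in SUM149PT CSCs.

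CSF3, the granulocyte colony stimulating factor, had 0.767, 0.649 and 1.21 FPKM in SUM149PT CSCs and 14.9, 16.1 and 14.3 in SUM149PT non-CSCs. The HCC1937 CSC libraries had 31.5, 26.1 and 23.8 and the non-CSC libraries 5.82, 8.08 and 6.06. SUM159PT, with 10.8, 9.40 and 10.4, lay between the HCC1937 fractions as deposited, but overlapped HCC1937 non-CSCs with each library rescaled to the same sum (means of 6.11 and 7.32 FPKM at the average library sum). CSF3 was the only one of the 10 genes for which SUM149PT CSCs formed the lowest group. IL24 had 1.25, 1.12 and 1.31 FPKM in SUM149PT CSCs and 21.1, 21.8 and 21.2 in SUM149PT non-CSCs, and 3.42, 3.46 and 2.95 in HCC1937 CSCs and 0.600, 1.04 and 0.581 in HCC1937 non-CSCs. SUM149PT non-CSCs were far above the rest, and both pairs of fractions were apart. TNFAIP6 had 23.7, 23.6 and 23.4 FPKM in SUM149PT CSCs and 136, 116 and 121 in SUM149PT non-CSCs, and 30.2, 36.6 and 34.1 in HCC1937 CSCs and 9.10, 10.1 and 9.82 in HCC1937 non-CSCs. Its fractions were also apart in each line and in opposite order, and SUM159PT was lowest for IL24 (0.135, 0.0944 and 0.0515 FPKM) and for TNFAIP6 (1.22, 0.897 and 1.01 FPKM).

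**Figure D1:**
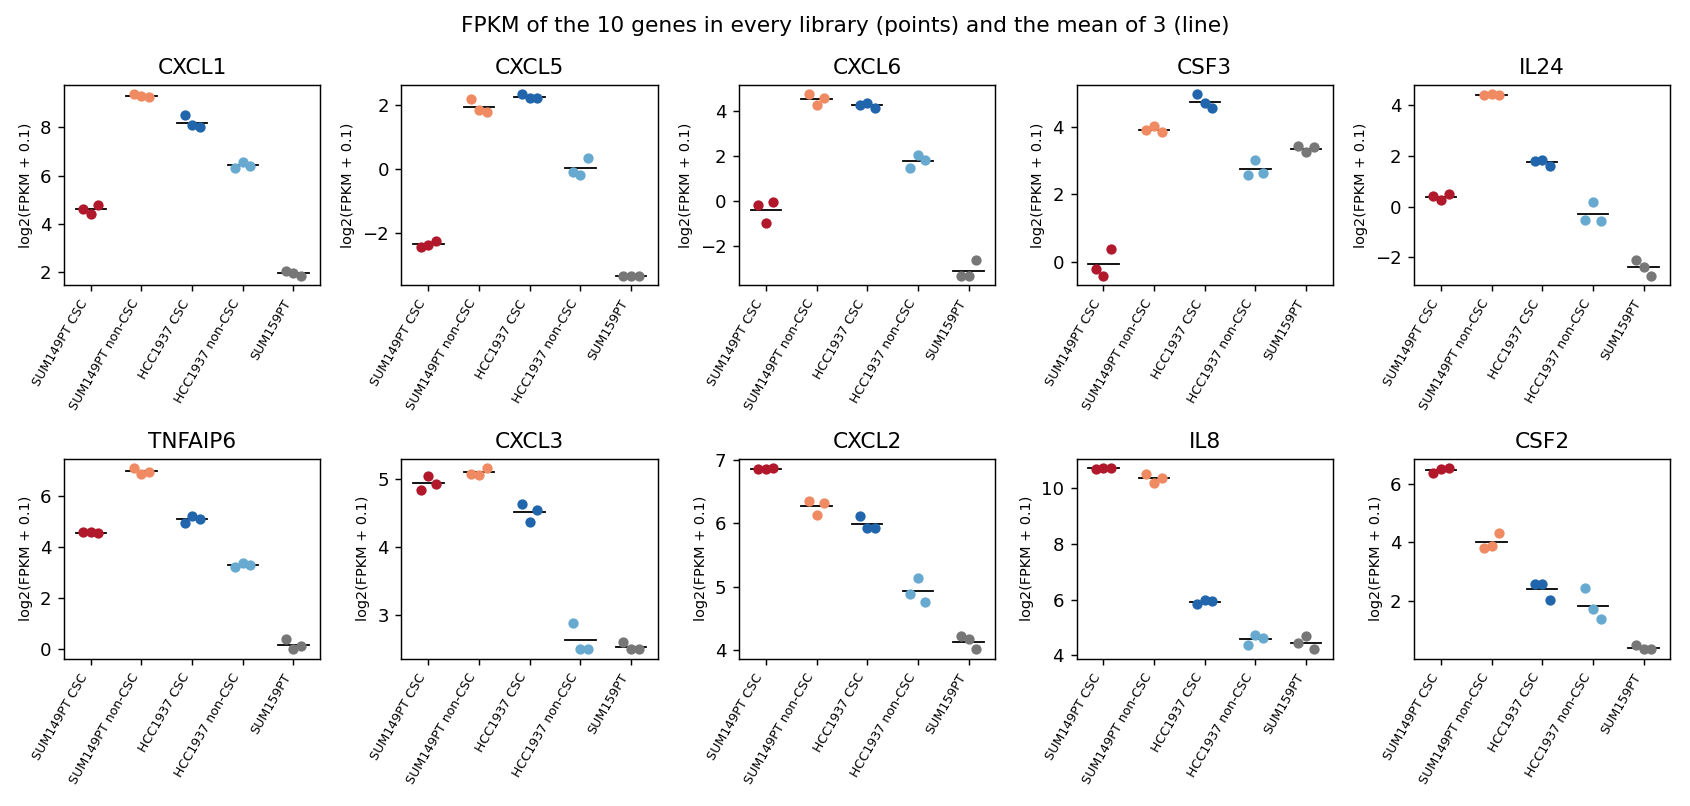
Level of each of the 10 genes, as log2(FPKM + 0.1), in each library (points, 3 a group) with the group mean (line), for the 5 groups on the horizontal axis. CXCL1, CXCL5, CXCL6, CSF3, IL24 and TNFAIP6 are low in SUM149PT CSCs and high in HCC1937 CSCs against the non-CSCs of the same line, whereas CXCL2 and IL8 are higher in CSCs of both lines.

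The remaining 4 genes did not share that reversal in full. CXCL3 stood in opposite order in the lines but with a small difference in SUM149PT, and IL8, CXCL2 and CSF2 had higher means in CSCs of both lines. IL8, a neutrophil attractant and the most abundant of the 10 by FPKM in SUM149PT and SUM159PT, had 1685, 1717 and 1691 FPKM in SUM149PT CSCs and 1485, 1184 and 1333 in SUM149PT non-CSCs, and 57.8, 63.1 and 61.7 in HCC1937 CSCs and 20.6, 26.1 and 24.4 in HCC1937 non-CSCs. All CSC libraries lay above all non-CSC libraries of their line, and SUM159PT, with 21.4, 25.6 and 18.3, overlapped HCC1937 non-CSCs as deposited but was below them with each library rescaled to the same sum (means of 13.02 and 26.2 FPKM at the average library sum). CXCL2, an ELR+ attractant close in sequence to CXCL1, had 115, 115 and 117 FPKM in SUM149PT CSCs and 81.6, 69.8 and 79.9 in SUM149PT non-CSCs, and 69.0, 60.3 and 60.4 in HCC1937 CSCs and 29.3, 35.1 and 27.0 in HCC1937 non-CSCs. For CXCL2 the CSC libraries were the higher ones in each line and did not overlap the others, and it was lowest in SUM159PT with 18.6, 17.9 and 16.0. CXCL3, of the same kind, had 28.5, 33.0 and 30.4 FPKM in SUM149PT CSCs and 33.8, 33.1 and 35.8 in SUM149PT non-CSCs, and 24.8, 20.6 and 23.2 in HCC1937 CSCs and 7.33, 5.59 and 5.54 in HCC1937 non-CSCs. In SUM149PT the highest CSC library and the lowest non-CSC library of CXCL3 almost touched, in HCC1937 the fractions were far apart, and SUM159PT, with 6.02, 5.55 and 5.59, overlapped HCC1937 non-CSCs as deposited but was below them after that rescaling (means of 3.43 and 6.79 FPKM).

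CSF2, the granulocyte-macrophage colony stimulating factor, had 82.6, 91.7 and 94.0 FPKM in SUM149PT CSCs and 13.9, 14.7 and 20.0 in SUM149PT non-CSCs. It had 5.91, 5.89 and 3.93 in HCC1937 CSCs and 5.26, 3.19 and 2.45 in HCC1937 non-CSCs, and 1.30, 1.16 and 1.15 in SUM159PT. CSF2 was high in SUM149PT CSCs, where CSF3 was lowest, and its HCC1937 fractions overlapped. The ratio of CSF2 to CSF3 FPKM within a library averaged 109 in SUM149PT CSCs, 1.08 in SUM149PT non-CSCs, 0.193 in HCC1937 CSCs, 0.568 in HCC1937 non-CSCs and 0.118 in SUM159PT.

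The difference between fractions was put on the log2(FPKM + 0.1) scale, which understates the change of low genes, and a gene was called at a limma adjusted p of at most 0.05 with an absolute log2 difference of at least 1. In SUM149PT, 7 of the 10 genes had all CSC libraries below all non-CSC libraries, beside 43.4% of 16037 genes tested, and 3 had them all above, beside 35.3%. Of these, 6 were past both limits as lower, beside 22.1% of the genes tested, and CSF2 as higher, beside 12.8%. In HCC1937, 9 had all CSC libraries above all non-CSC libraries, beside 19.1% of 15582 genes, and were past both limits, beside 2.71%, with CSF2 overlapping. Of these 9, CXCL2, at 1.06, went below the limit of 1 without CSC replicate 1 or non-CSC replicate 3. None had all CSC libraries below in HCC1937, beside 24.3%, and none was called lower, beside 6.0%. CXCL1, CXCL5, CXCL6, CSF3, IL24 and TNFAIP6 were past the limits as lower in SUM149PT CSCs and higher in HCC1937 CSCs, beside 0.541% of 14423 genes tested in both lines. No member was past them the other way round, beside 0.257%. Since these contrasts chose the 10 genes, nothing is read from the counts.

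The log2 differences, with the standard error of the fit, ran in SUM149PT from -4.93 ± 0.28 for CXCL6 to 2.48 ± 0.15 for CSF2, with a median of -3.20 against -0.11 over all genes tested. In HCC1937 they ran from 0.56 ± 0.31 for CSF2 to 2.47 ± 0.15 for CXCL6, with a median of 1.83 against -0.032. The neighbours in the chromosome 4 cluster were spread widely in SUM149PT, at -4.69 ± 0.11 for CXCL1, -4.27 ± 0.12 for CXCL5, -0.16 ± 0.076 for CXCL3, 0.59 ± 0.076 for CXCL2 and 0.35 ± 0.093 for IL8. In HCC1937 the same genes stood closer together, at 1.77 ± 0.15 for CXCL1, 2.23 ± 0.16 for CXCL5, 1.88 ± 0.14 for CXCL3, 1.06 ± 0.12 for CXCL2 and 1.36 ± 0.11 for IL8. The size of the differences of low genes depended on the pseudocount, CXCL5 in SUM149PT being at -2.10 with a pseudocount of 1 and -5.11 with 0.01, and IL24 in HCC1937 at 1.31 with 1 against 2.05 ± 0.22. The directions of all 10 genes held in both lines under upper quartile scaling, quantile normalization and rescaling to a common sum, and the small difference of CXCL3 in SUM149PT was -0.14, -0.12 and -0.12 under these. Quantile normalization made CXCL1 the lowest of the 10 genes in SUM149PT, at -4.72 against -4.66 for CXCL6. It also moved the median of all genes in SUM149PT from -0.11 to 0.10. Relative to these medians CXCL3 was at -0.051 and -0.22 and IL8 at 0.46 and 0.16. Rescaling to a common sum moved the median of all genes in HCC1937 from -0.032 to 0.088, relative to which CSF2 was at 0.60 and the other 9 genes were higher still.

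**Figure D2:**
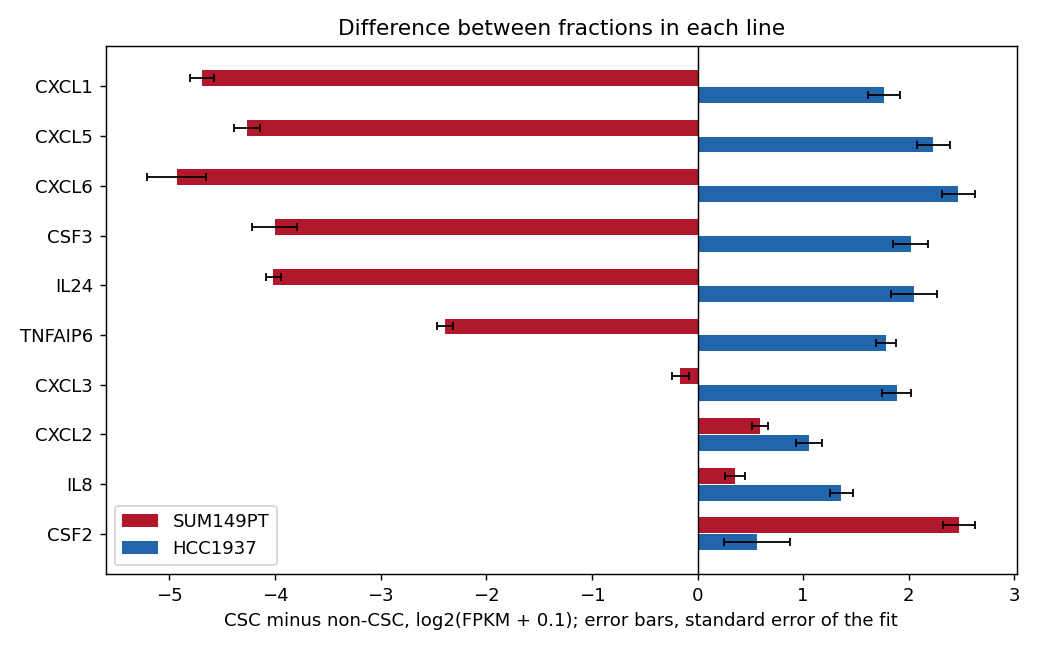
CSC minus non-CSC difference of each gene on the log2(FPKM + 0.1) scale in SUM149PT (red) and HCC1937 (blue), with error bars for the standard error of the fit over 6 libraries a line. Bars of CXCL1, CXCL5, CXCL6, CSF3, IL24 and TNFAIP6 point left in SUM149PT and right in HCC1937, and those of CXCL2, IL8 and CSF2 point right in both.

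The make-up of the summed chemokine signal differed more than its size in SUM149PT. The 6 CXC chemokines summed to 1869.8 ± 16.2 FPKM in SUM149PT CSCs and 2104 ± 182 in SUM149PT non-CSCs, 467 ± 60.5 in HCC1937 CSCs, 151 ± 13.5 in HCC1937 non-CSCs and 48.8 ± 4.77 in SUM159PT. Without IL8 the sums were 172 ± 3.78 in SUM149PT CSCs and 770.2 ± 36.6 in SUM149PT non-CSCs. IL8 made up 90.8% ± 0.222 of the 6-gene sum in SUM149PT CSCs, 63.3% ± 1.88 in SUM149PT non-CSCs, 13.2% ± 2.11 in HCC1937 CSCs, 15.7% ± 1.06 in HCC1937 non-CSCs and 44.4% ± 3.47 in SUM159PT. CXCL1 made up 1.31% ± 0.183 in SUM149PT CSCs and 30.1% ± 1.95 in SUM149PT non-CSCs, but 63.2% ± 3.56 and 57.2% ± 0.418 in CSCs and non-CSCs of HCC1937. IL8 therefore led in both SUM149PT fractions and in SUM159PT, and CXCL1 in both HCC1937 fractions. Among the 5 chemokines other than IL8, CXCL2 was the largest in SUM149PT CSCs with 67.5% ± 0.851 and in SUM159PT with 64.7% ± 1.02, and CXCL1 in SUM149PT non-CSCs with 82.1% ± 1.25. By the mean share of each of these 5, SUM149PT CSCs stood nearer to SUM159PT than to the non-CSCs of their own line.

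**Figure D3:**
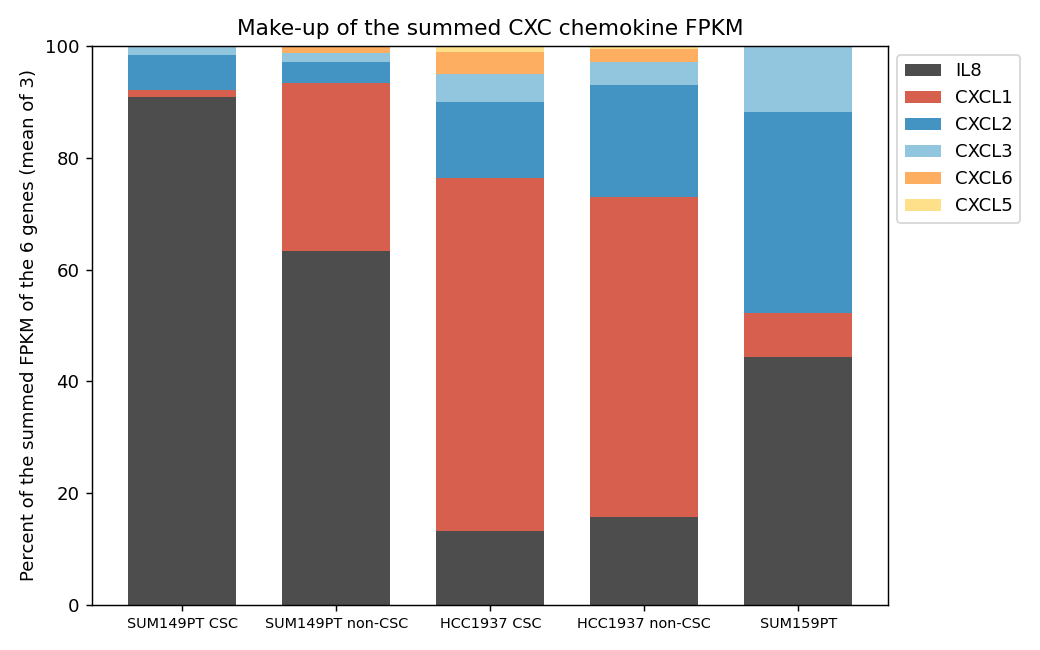
Share of each of the 6 CXC chemokines in their summed FPKM (vertical axis, percent, mean of 3 libraries) in the 5 groups. IL8 takes the most in SUM149PT and SUM159PT, and CXCL1 in HCC1937.

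The order of the 5 groups, by FPKM as deposited, differed between genes. IL8, CXCL2 and CSF2 were highest in SUM149PT CSCs, then in SUM149PT non-CSCs, HCC1937 CSCs and HCC1937 non-CSCs, and lowest in SUM159PT, with overlap between neighbours only for IL8 in the last pair and for CSF2 in the HCC1937 pair. CXCL1, CXCL6, IL24 and TNFAIP6 were highest in SUM149PT non-CSCs and next in HCC1937 CSCs, CXCL5 and CSF3 had these groups in the reverse order, and CXCL3 had both SUM149PT fractions first. SUM159PT was the lowest group for 9 of the 10 genes. Summed FPKM being highest in SUM159PT, the order was also read after scalings added once the data had been seen. SUM159PT was lowest for 9 genes with each library rescaled to the same sum, for 7 after upper quartile scaling and for 6 after quantile normalization. It stood above HCC1937 non-CSCs for IL8 and CXCL3 after upper quartile scaling, and for CXCL3 and, with overlap, IL8 and CSF2 after quantile normalization, so its place beside HCC1937 non-CSCs depended on the scaling for CSF3, IL8, CXCL3 and CSF2. The order of the 4 sorted groups was the same under all 3 scalings, but the SUM149PT fractions of CXCL3 overlapped after upper quartile scaling and quantile normalization. SUM149PT non-CSCs and HCC1937 CSCs were apart for CXCL6 after these same scalings and overlapped for CXCL5 after upper quartile scaling, as did HCC1937 non-CSCs and SUM159PT for CXCL2.

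Over the 12 sorted libraries, which share lines and fractions, the Pearson correlations of log2(FPKM + 0.1) split the genes into sets that were chosen after their values were seen and carry no test. CXCL1, CXCL5, CXCL6 and CSF3 correlated at 0.91 to 0.98 in their 6 pairs, and CXCL2, CXCL3, IL8 and CSF2 at 0.68 to 0.91. The 16 pairs between these sets ran from -0.75 to 0.21. With SUM159PT included, over all 15 libraries, these ranges were 0.45 to 0.99, 0.81 to 0.93 and -0.66 to 0.59, so the sets were less distinct, with CXCL1 and CSF3 at 0.45 and CXCL1 and CXCL2 at 0.54. IL24 and TNFAIP6 correlated at 0.97 with each other, and at 0.83 and 0.70 with CXCL1. CSF2 and CSF3 were at -0.75.

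**Figure D4:**
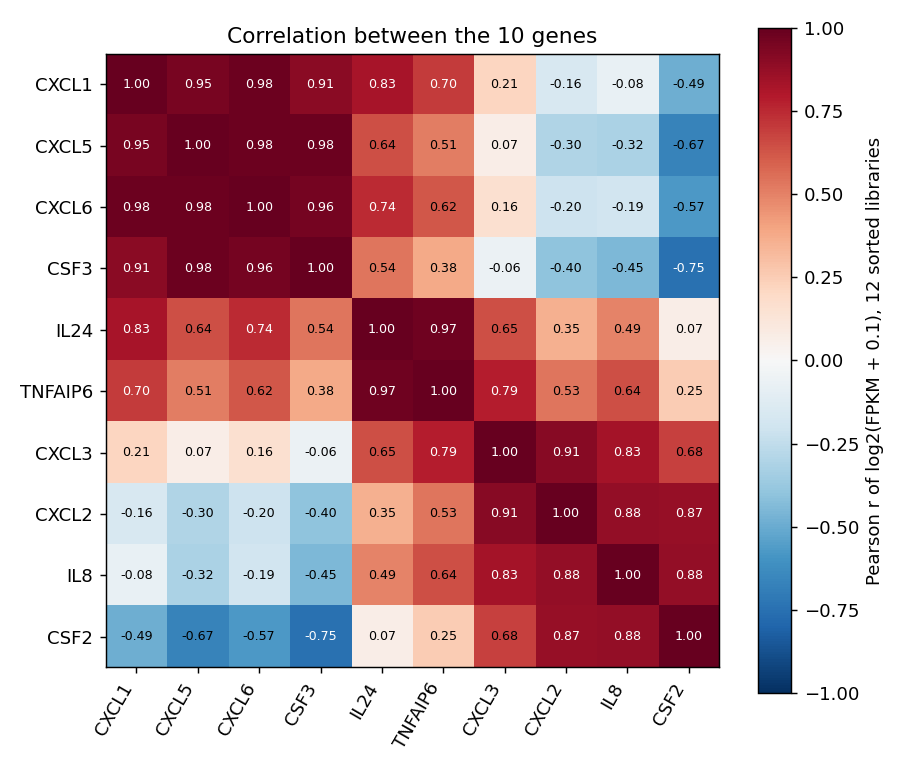
Pearson correlation between each pair of the 10 genes over the 12 sorted libraries, from log2(FPKM + 0.1), with red for positive and blue for negative values. CXCL1, CXCL5, CXCL6 and CSF3 form a set apart from CXCL2, CXCL3, IL8 and CSF2.

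An average over the 10 genes stood for its members unevenly, since the Pearson r of a gene with the mean of the other 9 over the sorted libraries was 0.97 for TNFAIP6 and 0.95 for IL24, but 0.45 for IL8, 0.41 for CXCL2, 0.34 for CSF3 and 0.043 for CSF2. Among 12285 other genes that averaged 1 FPKM or more in the sorted libraries, those most like the average standardised profile of the 10 genes, by Pearson r over these 12 libraries, were C1R (0.98, and 0.58 over all 15), TLE4 (0.98, and 0.99 over all 15), SKAP2 (0.97, and 0.89 over all 15), PLSCR4 (0.97, and 0.40 over all 15) and LMO4 (0.97, and 0.99 over all 15). The next were SLC30A1 (0.97, and 0.95 over all 15), TGFBR1 (0.96, and 0.90 over all 15), TGM2 (0.96, and 0.92 over all 15), S1PR3 (0.96, and 0.97 over all 15) and SORCS2 (0.96, and 0.95 over all 15). C1R, a complement protease, averaged 35.4 FPKM in SUM149PT CSCs, 79.4 in SUM149PT non-CSCs, 41.4 in HCC1937 CSCs and 21.1 in HCC1937 non-CSCs, but 40.1 in SUM159PT, where the chemokines were low. Only 3 of these 10 were among the 10 nearest genes when all 15 libraries were used.

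The other genes of the cluster and of the chemokine system were taken from lists. PPBP and PF4, platelet chemokines whose genes lie between CXCL1 and CXCL5, were near 0 in HCC1937 and SUM159PT, and PPBP averaged 0.431 ± 0.141 FPKM (SD, n = 3) in SUM149PT CSCs and 11.8 ± 3.43 in non-CSCs, a log2 difference of -4.47 (limma adjusted p = 4.78e-05). PF4 was lower in CSCs of SUM149PT as well, at a log2 difference of -3.21, and PF4V1 was listed at 0 in all libraries. Other CXC and related chemokines were mostly lower in SUM149PT CSCs where tested. Some of these, such as PF4 at 0.0585 FPKM in those CSCs, passed the minimum only through the non-CSCs, which set their direction. Of 12 genes, 8 passed the minimum in SUM149PT, of which 2 were called higher and 6 lower in CSCs, with a median log2 difference of -2.73. In HCC1937 3 passed, of which 0 were called higher and 1 lower, with a median of -1.03. Over all genes tested 34.9% were called in SUM149PT and 8.71% in HCC1937, and these medians were -0.11 and -0.032. CXCL16, a membrane-bound chemokine, fell in CSCs of both lines, from 37.1 ± 1.60 to 1.93 ± 0.0283 FPKM in SUM149PT and from 44.9 ± 1.66 to 10.8 ± 0.929 in HCC1937, and CX3CL1 rose in SUM149PT CSCs with a log2 difference of 1.58, a call that ended with a pseudocount of 1 (0.90).

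CC chemokines attract mainly other leukocytes. In SUM149PT 6 of the 18 genes passed the minimum, of which 0 were called higher and 5 lower in CSCs, with a median log2 difference of -2.85. For HCC1937 the number tested was 7, of which 1 was called higher and 2 lower, with a median of -0.74. Shares over all genes tested were 12.8% higher and 22.1% lower in SUM149PT, and 2.71% and 6.0% in HCC1937. CCL20, a ligand of CCR6, averaged 6.91 ± 0.512 FPKM in SUM149PT CSCs and 141 ± 22.1 in non-CSCs (log2 difference -4.32, limma adjusted p = 3.97e-06), but 5.06 ± 0.692 and 5.61 ± 0.850 in HCC1937, where it was not called. The lines differed for CCL20 by -4.18 (limma adjusted p = 1.44e-07), among 30.4% of 16451 genes called for that difference. CCL17 and CCL22 were lower in SUM149PT CSCs with log2 differences of -4.64 and -4.10, and CCL22 and CCL28 in HCC1937 CSCs with log2 differences of -2.54 and -3.12. CCL28 was also called lower in SUM149PT CSCs, a call that ended with a pseudocount of 1 (-0.27).

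Most genes listed as receptors for the products of the 10 genes were near 0 in the sorted groups. No row carried the listed symbol CXCR7, and other names for it were not searched. The minimum was passed in SUM149PT by 5 of 10 genes, of which 0 were called higher and 4 lower in CSCs, with a median log2 difference of -1.28. HCC1937 had 2 genes tested, of which 0 were called higher and 0 lower, with a median of -0.49. Calls over all genes tested took up 12.8% (higher) and 22.1% (lower) in SUM149PT, and 2.71% and 6.0% in HCC1937. CXCR1 and CXCR2, the receptors of the ELR+ chemokines, averaged at most 0.0222 FPKM in any group, and CSF2RB, the shared beta chain for CSF2, at most 0.0171. CSF3R was highest in SUM149PT non-CSCs with 0.499 ± 0.139 FPKM. IL20RB, a chain of the IL24 receptors, was the most abundant, with 20.9 ± 1.81 and 40.5 ± 1.66 FPKM in CSCs and non-CSCs of SUM149PT and 32.2 ± 1.70 and 37.1 ± 2.14 in those of HCC1937. Its SUM149PT difference of -0.95 was not called, but was without CSC replicate 2 (-1.01). IL22RA1, its partner chain, fell in SUM149PT CSCs, with a log2 difference of -1.28 that was -0.84 with a pseudocount of 1 and -0.93 after quantile normalization, both too small for a call.

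Cytokines that induce or accompany the chemokines were mixed. Of 20 genes, 16 passed the minimum in SUM149PT, of which 2 were called higher and 8 lower in CSCs, with a median log2 difference of -1.16. In HCC1937 17 passed, of which 4 were called higher and 5 lower, with a median of -0.51. Among all genes tested 12.8% were called higher and 22.1% lower in SUM149PT, and 2.71% and 6.0% in HCC1937. IL1B, an inducer of many chemokines, averaged 275 ± 6.98 and 393 ± 14.02 FPKM in CSCs and non-CSCs of SUM149PT and 222 ± 27.3 and 78.4 ± 5.34 in those of HCC1937, and was called higher in HCC1937 CSCs (log2 difference 1.496, limma adjusted p = 6.22e-04). Its log2 difference in SUM149PT was -0.51, short of the limit of 1, and the lines differed by -2.01 (limma adjusted p = 5.79e-07). IL33, an alarmin of the IL1 family, was called lower in SUM149PT CSCs (1.31 ± 0.0958 against 12.5 ± 1.23 FPKM) and higher in HCC1937 CSCs (0.546 ± 0.219 against 0.106 ± 0.0570). The HCC1937 call for IL33 rested on low values and ended with a pseudocount of 1 (0.47), and the adjusted p passed 0.05 without CSC replicate 3 (1.57), non-CSC replicate 1 (1.67) or non-CSC replicate 2 (1.40). LCN2, a neutrophil-associated iron carrier made by epithelia, was lower in CSCs of both lines, at 93.4 ± 4.57 against 2361 ± 168 FPKM in SUM149PT and 269.9 ± 1.90 against 1322 ± 128 in HCC1937, as was IL1RN, the receptor antagonist of IL1, with log2 differences of -4.90 and -2.02.

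IL6 was higher in CSCs of both lines, at 20.3 ± 0.849 against 10.03 ± 1.27 FPKM in SUM149PT and 16.8 ± 1.97 against 3.93 ± 0.593 in HCC1937. Its SUM149PT log2 difference of 1.02 fell below the limit of 1 with a pseudocount of 1 (0.96), without CSC replicate 3 (0.99) and without non-CSC replicate 3 (0.93). CSF1, the macrophage factor, was called higher in HCC1937 CSCs only, at 62.0 ± 2.26 against 29.4 ± 3.16 FPKM, a log2 difference of 1.08 that was 0.99 without non-CSC replicate 1, and the lines differed by -1.85 (limma adjusted p = 4.29e-07). PTGS2, the inducible cyclooxygenase, was lower in CSCs of both lines, with log2 differences of -2.39 and -1.26. IL36G, an IL1 family cytokine, fell in SUM149PT CSCs from 48.4 ± 1.79 to 1.45 ± 0.157 FPKM. Its HCC1937 log2 difference of -1.46 was called lower too, but not with either other pseudocount (-1.91 at 0.01, -0.49 at 1), with no minimum, after quantile normalization (-1.33) or after rescaling to a common sum (-1.36), nor without CSC replicate 1 (-1.24), CSC replicate 2 (-1.43), non-CSC replicate 2 (-1.19) or non-CSC replicate 3 (-1.40). KITLG rose in SUM149PT CSCs from 1.24 ± 0.135 to 4.68 ± 0.151.

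Genes that the naming rule left out, in lists with 5 or fewer calls of a kind, were named after their values were seen. In SUM149PT CSCs CXCL12, a chemokine of stromal cells, was called higher (0.801 ± 0.0686 against 0.104 ± 0.0540 FPKM), and DARC, a decoy receptor of chemokines, IL20RA, CSF3R and CCL26 lower. CXCL12 and DARC were listed at 0 in all HCC1937 libraries, and IL20RA and CSF3R did not pass the minimum there. All of these calls ended with a pseudocount of 1, at log2 differences of 0.71, -0.32, -0.47, -0.56 and -0.66, and that of DARC also after quantile normalization (-0.61). The CCL26 call, at -1.02, further ended after quantile normalization (-0.66), rescaling to a common sum (-0.98) and without CSC replicate 1 (-0.90), CSC replicate 3 (-0.87), non-CSC replicate 1 (-0.95) or non-CSC replicate 2 (-0.93), while its uncalled HCC1937 difference of -0.84 was called without CSC replicate 1 (-1.37). In HCC1937 CSCs CCL2 was called higher (0.275 ± 0.0145 against 0.0388 ± 0.0673 FPKM), but not with either other pseudocount (3.61 at 0.01, 0.30 at 1) or without CSC replicate 1 (1.52), CSC replicate 2 (1.52), CSC replicate 3 (1.57), non-CSC replicate 1 (1.35) or non-CSC replicate 3 (1.35). IL17C was called lower there (0.0908 ± 0.0254 against 0.358 ± 0.155 FPKM), but not with a pseudocount of 1 (-0.31), with the replicate block (limma adjusted p = 0.0694) or without CSC replicate 1 (-1.25), CSC replicate 2 (-1.10), CSC replicate 3 (-1.28), non-CSC replicate 1 (-0.99) or non-CSC replicate 2 (-1.14).

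The IL10 family neighbours of IL24 were lower in SUM149PT CSCs where tested, and IL29 was not in the table. In SUM149PT 3 of the 6 genes passed the minimum, of which 0 were called higher and 3 lower in CSCs, with a median log2 difference of -2.68. For HCC1937 the number tested was 1, of which 0 were called higher and 0 lower, with a median of -0.64. Beside these stood shares over all genes tested of 12.8% higher and 22.1% lower in SUM149PT, and 2.71% and 6.0% in HCC1937. The genes called were IL20, IL19 and IL10, of which IL19 and IL10 were named after their values were seen and were no longer called with a pseudocount of 1 (-0.29 and -0.73). IL19 and IL10 averaged 0.00605 and 0.0235 FPKM in SUM149PT CSCs. They passed the minimum only through the non-CSCs (0.228 and 0.698), so the minimum set their direction. IL20, the gene next to IL24 in that family's cluster, averaged 0.559 ± 0.156 FPKM in SUM149PT CSCs and 13.5 ± 2.09 in non-CSCs (log2 difference -4.39, limma adjusted p = 1.37e-05), and 0.0822 ± 0.0617 and 0.179 ± 0.0652 in CSCs and non-CSCs of HCC1937, where IL24 was higher in CSCs. The lines differed for IL20 by -3.75 (limma adjusted p = 1.87e-05). Partners of TNFAIP6 in hyaluronan metabolism moved in both directions, and were read against the same shares. The minimum was passed in SUM149PT by 10 of 16 genes, of which 2 were called higher and 6 lower in CSCs, with a median log2 difference of -1.73. HCC1937 had 8 genes tested, of which 2 were called higher and 1 lower, with a median of -0.12. HAS2, a hyaluronan synthase, was called lower in SUM149PT CSCs (2.37 ± 0.119 against 13.5 ± 0.660 FPKM) and higher in HCC1937 CSCs, where it was near 0 (0.232 ± 0.0599 against 0.0475 ± 0.0346), a call that ended with a pseudocount of 1 (0.23) and without non-CSC replicate 1 (0.99). HAS3, which had the highest mean over the 12 sorted libraries but led in HCC1937 non-CSCs alone, averaged 10.6 ± 0.831 FPKM in CSCs against 33.3 ± 1.47 in non-CSCs of HCC1937. PTX3, which joins TNFAIP6 in building a hyaluronan matrix, was higher in CSCs of both lines, with log2 differences of 1.55 and 2.05, and VCAN rose in SUM149PT CSCs from 0.981 ± 0.0296 to 6.16 ± 0.245 FPKM, while it averaged at most 0.000669 in an HCC1937 fraction and was not tested there. HYAL1 and HYAL3 were lower in SUM149PT CSCs, with log2 differences of -3.33 and -2.30.

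**Figure D5:**
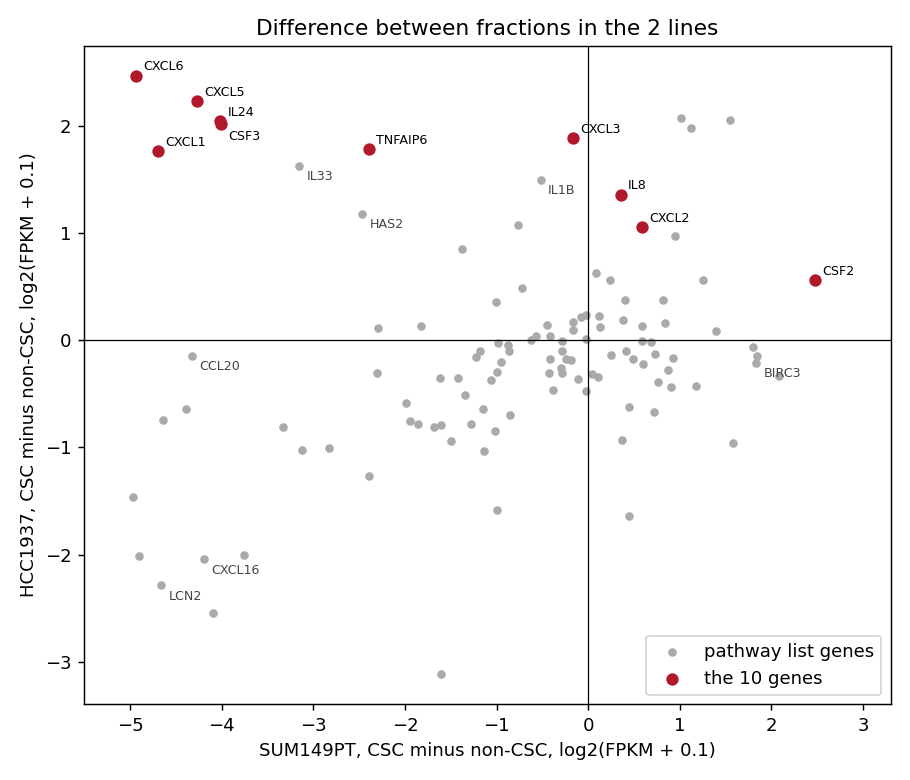
CSC minus non-CSC difference on the log2(FPKM + 0.1) scale in SUM149PT (horizontal) and HCC1937 (vertical) for the 10 genes (red) and 105 pathway list genes tested in both lines (grey). CXCL1, CXCL5, CXCL6, CSF3, IL24 and TNFAIP6 lie at the upper left, lower in SUM149PT CSCs and higher in HCC1937 CSCs, where IL33 and HAS2 are the list genes called in those opposite directions.

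Receptors for IL1, TNF, IL17 and Toll-like ligands carry the inducing signals. Of 19 genes, 17 passed the minimum in SUM149PT, of which 2 were called higher and 7 lower in CSCs, with a median log2 difference of -0.63. In HCC1937 18 passed, of which 0 were called higher and 3 lower, with a median of -0.32. Over all genes tested 12.8% were called higher and 22.1% lower in SUM149PT, and 2.71% and 6.0% in HCC1937. TNFRSF1A, the main TNF receptor, was the most abundant, at 67.3 ± 2.76 and 63.3 ± 0.264 FPKM in CSCs and non-CSCs of SUM149PT and 117 ± 9.34 and 75.3 ± 1.45 in those of HCC1937. TNFRSF1B and TLR4 rose in SUM149PT CSCs, with log2 differences of 2.08 and 1.35, the TLR4 call ending with a pseudocount of 1 (0.81), and TLR4 did not pass the minimum in HCC1937. IL1R2, a decoy receptor for IL1, was lower in CSCs of both lines, with log2 differences of -3.75 and -2.00, and the adaptor MYD88 was called lower in SUM149PT CSCs with -1.68. IL17RE was lower in SUM149PT CSCs with -2.82, while its HCC1937 difference of -1.01 was at the limit and went below it under upper quartile scaling (-0.99), quantile normalization (-0.91) and rescaling to a common sum (-0.88), with a pseudocount of 1 (-0.82), and without CSC replicate 1 (-0.94) or non-CSC replicate 1 (-0.99). TLR5, a flagellin receptor, was called lower in HCC1937 CSCs with -1.58, which a pseudocount of 1 ended (-0.82). In SUM149PT its difference of -0.997 was just short of the limit, and was called with a pseudocount of 0.01 (-1.04) and without CSC replicate 1 (-1.06), CSC replicate 3 (-1.02) or non-CSC replicate 3 (-1.06).

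NF-kappaB subunits and kinases relay these signals. In SUM149PT 12 of the 12 genes passed the minimum, of which 1 was called higher and 3 lower in CSCs, with a median log2 difference of -0.021. For HCC1937 the number tested was 12, of which 0 were called higher and 1 lower, with a median of -0.049. The share called over all genes tested, in either direction, was 34.9% in SUM149PT and 8.71% in HCC1937. RELA, the most abundant, averaged 72.6 ± 2.73 and 88.7 ± 1.46 FPKM in CSCs and non-CSCs of SUM149PT and 39.7 ± 0.945 and 39.8 ± 1.19 in those of HCC1937. NFKB1 rose in SUM149PT CSCs from 9.57 ± 0.512 to 25.2 ± 0.374 FPKM, IKBKE and IKBKG fell there with log2 differences of -1.98 and -1.18, and MAP3K8 was at -1.14 in SUM149PT and -1.03 in HCC1937. The IKBKG call ended after quantile normalization (-0.71) and with a pseudocount of 1 (-0.62), and the HCC1937 call of MAP3K8 under quantile normalization, rescaling to a common sum, a pseudocount of 1 and without non-CSC replicate 2 (-0.99). NF-kappaB feedback genes and co-regulators were read against the same shares. The minimum was passed in SUM149PT by 17 of 18 genes, of which 3 were called higher and 2 lower in CSCs, with a median log2 difference of 0.11. HCC1937 had 17 genes tested, of which 1 was called higher and 0 lower, with a median of -0.18. ZC3H12A, an RNase that degrades inflammatory mRNAs, was lower in SUM149PT CSCs (24.1 ± 0.548 against 86.0 ± 2.27 FPKM), while BIRC3 (75.5 ± 2.73 against 21.1 ± 1.21) and IRAK2 (52.3 ± 1.39 against 15.02 ± 1.18) were higher. In HCC1937 none of these 3 was called, and the lines differed for each (limma adjusted p = 1.12e-07, 9.74e-08 and 1.51e-07). TNFAIP2 was lower in SUM149PT CSCs with -1.499, and TNIP3 was higher in CSCs of both lines, with 1.13 and 1.98, short of the limit of 1 in both with a pseudocount of 1 (0.93 and 0.64).

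AP-1, C/EBP and EGR factors, which can act beside NF-kappaB, were read next. The shares called over all genes tested were 12.8% higher and 22.1% lower in SUM149PT, and 2.71% and 6.0% in HCC1937. Of 14 genes, 14 passed the minimum in SUM149PT, of which 2 were called higher and 2 lower in CSCs, with a median log2 difference of -0.15. In HCC1937 14 passed, of which 0 were called higher and 0 lower, with a median of -0.33. JUNB, which had the highest mean over the 12 sorted libraries, averaged 421 ± 18.0 and 550.4 ± 7.05 FPKM in CSCs and non-CSCs of SUM149PT and 274 ± 33.9 and 377 ± 44.0 in those of HCC1937. FOSL2 and EGR1 rose in SUM149PT CSCs, with log2 differences of 1.25 and 1.18, and CEBPA and CEBPD fell, with -1.60 and -1.42. The AU-rich element binding proteins, some of which destabilise chemokine mRNAs, were read last, against the same shares. In SUM149PT 10 of the 10 genes passed the minimum, of which 0 were called higher and 1 lower in CSCs, with a median log2 difference of -0.093. For HCC1937 the number tested was 10, of which 0 were called higher and 0 lower, with a median of -0.041. ZFP36 was lower in SUM149PT CSCs, at 53.6 ± 2.23 against 119 ± 3.93 FPKM, and ZFP36L1, which had the highest mean over the 12 sorted libraries but led in neither HCC1937 fraction, averaged 178 ± 5.25 and 181 ± 2.31 FPKM in SUM149PT and 59.8 ± 2.84 and 59.2 ± 1.41 in HCC1937.

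Near-identical copies limit how firmly CXCL1, CXCL2 and CXCL3 can be told apart. Of all windows of 50 bases in their GENCODE release 29 protein-coding transcripts, 5.73% in CXCL1, 9.24% in CXCL2 and 5.26% in CXCL3 also occurred in another of the 6 chemokines, and 0% in CXCL5, CXCL6 and IL8. The window length was chosen after the data were seen, the read length is not given in the sources used here, and how the quantification shared such reads was not tested.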

How the data were processed

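Gene levels were deposited by the authors as FPKM for 33158 symbols in 15 libraries, from mRNA sequenced on an Illumina HiSeq instrument. GRCh38 and Bowtie2 are named in the submitters' processing notes, and the quantification tool is not given in the sources used here. Low values gave a rough relative depth within groups but no fragment numbers, and precision rests on 3 libraries a group. All columns were matched to a library. Summed FPKM ran from 291276 to 652082, highest in SUM159PT. Replicates of a group correlated at 0.987 to 0.993 on the log2 scale.

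Values were analysed as log2(FPKM + 0.1) in limma 3.58.1 (lmFit, eBayes, R 4.3.3), keeping genes that averaged 0.1 FPKM or more, for each line over 6 libraries and, for the difference between lines, over 12, with Benjamini-Hochberg adjustment over all genes tested. The fit was tested on simulated data, with no outcome given here. Descriptions used Python 3.11.15 with pandas 2.3.3, numpy 2.4.6 and matplotlib 3.10.9. The members and the 11 pathway and 5 marker lists were chosen with earlier results of these data known. From each pathway list were named the gene with the highest mean over the sorted libraries, up to 3 called genes per line and direction with the largest log2 difference that averaged 1 FPKM or more in a fraction, and genes called in opposite directions. The 10 genes most like the members were named by Pearson r. Alternatives were other pseudocounts, minimum levels, scalings, eBayes with a trend, a fit over all libraries, a replicate block, a stricter limit and leaving out each library. Promoters and gene positions came from RefSeq (GRCh38.p14).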

Additional observations from a re-analysis of the deposited data

Results flagged for a closer look

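Among the 10 genes, 7 had all CSC libraries on opposite sides of all non-CSC libraries in SUM149PT and HCC1937, beside 12.2% of 14423 genes tested in both lines. The SUM149PT difference minus the HCC1937 difference, on the log2(FPKM + 0.1) scale, was given for each in parentheses: CXCL1 (-6.46), CXCL3 (-2.05), CXCL5 (-6.50), CXCL6 (-7.40), CSF3 (-6.02), IL24 (-6.06) and TNFAIP6 (-4.18). This difference was not tested, because the genes were chosen by it, and for CXCL3 the SUM149PT fractions nearly touched, and overlapped after upper quartile scaling or quantile normalization.

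For 50 named genes of the pathway lists limma's interaction of line and fraction was tested over the 12 sorted libraries, and 35 were singled out because it was called, beside 30.4% of 16451 genes. The CSC effect was lower in SUM149PT than in HCC1937 for 24, beside 18.2%, and higher for 11, beside 12.2%. Many had been named because they were called in a line, so nothing is read from these counts. Among those tested in both lines it was lower in SUM149PT, with differences in log2 units in parentheses, for CXCL16 (-2.15), CCL20 (-4.18), CCL17 (-3.89), CCL22 (-1.56), LCN2 (-2.37), IL6 (-1.06), IL36G (-3.51), IL1RN (-2.88), IL1B (-2.01), CSF1 (-1.85), PTGS2 (-1.13), IL33 (-4.78), IL20 (-3.75), IL1R2 (-1.75), IL17RE (-1.82), IKBKE (-1.39), IKBKG (-1.09), ZC3H12A (-1.96), CEBPD (-1.07), HYAL1 (-2.52), HAS2 (-3.65) and HYAL3 (-2.41), and higher for CX3CL1 (2.54), CCL28 (1.52), KITLG (1.98), TNFRSF1B (2.41), NFKB1 (1.30), BIRC3 (2.05), IRAK2 (1.86), EGR1 (1.61) and HAS3 (2.09). CCL28 was listed at 0 in all SUM149PT CSC libraries, so the pseudocount limits how far it could fall there. The other 4, PPBP (-4.23), PF4 (-3.89), TLR4 (1.04) and VCAN (2.54), did not pass the minimum in HCC1937, where they averaged at most 0.0611 FPKM in a fraction, so their values rest on SUM149PT and compare no CSC effects.

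Of 25 markers and list genes named after their values were seen and tested for it, IL1A left aside, the interaction was called for 20, beside the same 30.4% of all genes, and nothing is read from this count either, since these genes were picked by their values. Those tested in both lines were CD24 (-1.48), KRT19 (-2.46), CD14 (-5.22), CD68 (-1.65), ITGB2 (-2.54), S100A12 (-2.96), COL1A1 (1.43), PECAM1 (-1.44) and CDH5 (-1.43), of which S100A12 was listed at 0 in all SUM149PT CSC libraries. The other 11 were tested in 1 line, so their values compare no CSC effects. CXCL12 (2.17), DARC (-1.23), IL20RA (-2.15), CSF3R (-2.38), IL10 (-2.58), DCN (-3.38), COL3A1 (1.92), PDGFRA (2.99), PDGFRB (2.60) and VWF (-2.02) averaged at most 0.0820 FPKM in an HCC1937 fraction, CXCL12 and DARC being at 0 there, and CCL2 (-1.93) at most 0.0841 in a SUM149PT fraction. Groups of 3 libraries were too small for a check of single outlying libraries.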

How the results depend on the processing

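Genes called numbered 5596 in SUM149PT, 1357 in HCC1937 and 5004 for the difference between lines. An adjusted p of at most 0.0001 gave 3292, 0 and 2922, limma having 5886 genes of HCC1937 at an unadjusted p under 0.05. A pseudocount of 1 gave 3109, 626 and 2872. A minimum mean of 1 FPKM, with fewer genes tested, gave 3623 in SUM149PT and 872 in HCC1937. Other counts were within 1.5 times of these, and leaving out single libraries gave 5473 to 5593, 1170 to 1359 and 4863 to 5043. The replicate block gave 5584, 1268 and 4944, and same-numbered libraries did not deviate together (correlations from -0.0777 to 0.0880), nor did every library correlate best with its own number. Quantile normalization moved the share of calls that were higher from 36.5% to 51.2% in SUM149PT and from 40.2% to 50.7% for the difference, and in HCC1937 from 31.1% to 40.8%, or 41.1% with each library rescaled to the same sum. No difference of the 10 genes changed sign. CXCL2 in HCC1937, at 1.06, went below the limit of 1 without CSC replicate 1 or non-CSC replicate 3. Of the values of the 10 genes, 13 moved by more than 1 SD. A pseudocount of 1, which by construction shrinks the differences of low genes, gave CXCL5 -2.10, CXCL6 -3.84, CSF3 -3.11 and IL24 -3.33 in SUM149PT and CXCL5 1.56, CXCL6 2.20 and IL24 1.31 in HCC1937. A pseudocount of 0.01 gave CXCL5 -5.11 and IL24 -4.11 in SUM149PT. The other moves, whose cause was not tested, were CXCL2 0.68, CXCL5 -3.85 and IL24 -3.80 in SUM149PT after quantile normalization and TNFAIP6 1.91 in HCC1937 with each library rescaled to the same sum. Of the values of named list genes, 66 lost a call and 5 gained one. Of the genes named later, IL1A left aside, whose alternatives were chosen after the data were seen, 48 values lost a call and 11 gained one. Sign changes were seen only in uncalled differences, and the cause was not tested. ZFP36L1 in SUM149PT was at 0.0226 with each library rescaled to the same sum. RELA in HCC1937 was at 0.0117 with upper quartile scaling, 0.0486 with quantile normalization, 0.12 with each library rescaled to the same sum and -0.0271 to 0.0135 without single libraries. IRAK2 in HCC1937 was at 0.00332 with quantile normalization and 0.0586 with each library rescaled to the same sum. IKBKG in HCC1937 was at 0.0179 with each library rescaled to the same sum and -0.23 to 0.0445 without single libraries. ZFP36L1 in HCC1937 was at -0.0252 to 0.0356 without single libraries. CCL17 in HCC1937 was at -1.31 to 0.12 without single libraries. Fragment numbers are unknown, so counting error could not be given.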
